A study of Homo sapiens with 4 samples.

Results

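Respiratory complex I genes were measured on 4 expression arrays of AGS, a cell line grown from a human stomach adenocarcinoma. The genes were taken by symbol: those whose names begin with NDUFA, NDUFB, NDUFC, NDUFS or NDUFV, with the assembly factors named NDUFAF among them. Each gene was represented by its brightest probe set (the group of probes that reads 1 transcript) annotated to exactly 1 gene. This gave 41 genes, 33 subunits and 8 assembly factors, of 19775 genes in all. NDUFS5, NDUFS8, NDUFC2 and the readthrough NDUFC2-KCTD14 were read by probe sets annotated to several genes and were not members. Also beginning with these letters were 3 non-coding RNAs, NDUFB2-AS1, NDUFV1-DT and NDUFV2-AS1, which encode no subunit and were kept apart.

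The 4 arrays were 2 of AGS cells with wild-type PRMT6 (control) and 2 of AGS cells with PRMT6 knocked out. PRMT6 is an enzyme that methylates arginines in histone H3 and other proteins. Knockout cells came from a lentiviral Cas9 vector carrying a single guide, puromycin selection and limiting dilution, so they were clones. Which clone each knockout array holds, and whether control cells carried a vector or were cloned, is not given in the labels, and nothing says that the arrays of a group came from separate cultures. The p-values therefore measure the spread between these arrays, which may be technical, and an effect of clone and of PRMT6 loss cannot be told apart.

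Complex I is the NADH:ubiquinone oxidoreductase of the mitochondrial inner membrane. Its matrix arm takes electrons from NADH, passes them along flavin and iron-sulfur clusters and reduces ubiquinone, and its membrane arm pumps protons. Conserved core subunits carry the catalysis, supernumerary subunits surround them, and assembly factors help to build the complex without staying in it. The core subunits of the membrane arm are encoded in mitochondrial DNA and were not analysed here.

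PRMT6 itself read 8.03 and 8.11 (log2 intensity) in control and 7.79 and 7.63 in knockout arrays, and fell by 0.36 on the log2 scale (SE 0.09, adjusted p = 0.043, limma). Where its probes lie relative to the edit was not analysed here, so the level does not check the edit. The PRMT6 call did not hold in a fit limited to probe sets designed for 1 gene, called gene-specific here (adjusted p = 0.057, limma). Its 1 probe set is itself gene-specific and the change there was the same -0.36, so only the other genes in the fit differed. Nor did the call hold when an array was dropped, where the change ran from -0.44 to -0.28. Most epithelial markers were bright in both groups (EPCAM 12.54 and 12.46, KRT18 13.27 and 13.23), CDH1 less so (7.27 and 7.20). Of 8, 3 were higher, ELF3 (1.05), KRT19 (0.61) and KRT8 (0.49), and 2 lower, CLDN7 (-0.65) and CLDN4 (-0.46). Over all genes 12.4% were higher and 11.5% lower. Of 6 fibroblast markers 3 were higher, COL1A1 (1.56), LUM (1.37) and COL3A1 (1.02); the mean level of the list was 4.41 to 4.61 on control and 5.12 to 5.18 on knockout arrays. COL1A1 was the 1 bright fibroblast marker (8.58 in control), and LUM and COL3A1 were dim (2.38 and 2.78 in control). DCN read 4.62 and 4.74 in control and knockout, and COL1A2 read 3.84 and 3.52, a change of -0.315 that was not called. The part of the fibroblast list in the complex I result was not tested. Of 4 measured leukocyte markers 0 rose and 1, CSF1R, fell (-0.63). List means were 6.86 to 6.91 on control and 6.26 to 6.77 on knockout arrays. These means leaned on LYZ, which read 12.77 and 12.88 in control and 12.36 and 11.30 in knockout arrays. LYZ was not called (adjusted p = 0.096, limma). The others were dimmer in control: CSF1R 6.39, CD3E 5.58 and PTPRC 2.74. PTPRC read higher on both knockout arrays and was not called, so the list mean does not describe each marker. None of 5 endothelial markers was called, with means of 3.85 to 3.95 and 3.93 to 4.03. Without detection calls, a marker's absence could not be read from these values. Pearson's r across genes was 0.997 between control arrays, 0.998 between knockout arrays and 0.983 to 0.984 between groups. In these arrays fewer cells of a kind and less RNA per cell cannot be told apart.

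In the knockout cells the transcripts of complex I were moderately higher. By limma, with calls made where the adjusted p was under 0.05, 24 of the 41 rose and 0 fell, against 12.4% of all genes that rose and 11.5% that fell. The largest rise was that of NDUFA2, 1.98-fold, and the median change of the 41 was 0.37 on the log2 scale, beside -0.01 for all genes. For 37 genes both knockout arrays lay above both control arrays, an order found in 29.1% of all genes. Among the 9887 genes brighter than the median gene, as all 41 are, 4165 had this order and 3677 the opposite one. For NDUFV1, NDUFS4 and NDUFAF3 both lay below, also an order found in 29.1%, and for NDUFAF2 the arrays overlapped.

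The number of calls depended on each of the 4 arrays. Leaving out control 1 left 15 complex I genes that rose and 0 that fell, beside 6.93% and 6.36% of all genes. Leaving out control 2 left 12 and 0, beside 5.18% and 6.07%. With knockout 1 left out, where the lone knockout array is assumed to vary like the controls, 2 rose (NDUFA2 and NDUFB10) and 0 fell, beside 0.991% and 1.89%. With knockout 2 left out, 1 rose (NDUFA2) and 0 fell, beside 0.779% and 1.79%. The change was above 0 for 37 or 38 of the 41 genes in each of these fits (with all 4 arrays 37, beside 48.6% of all genes), and its median lay between 0.37 and 0.42.

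**Figure D1:**
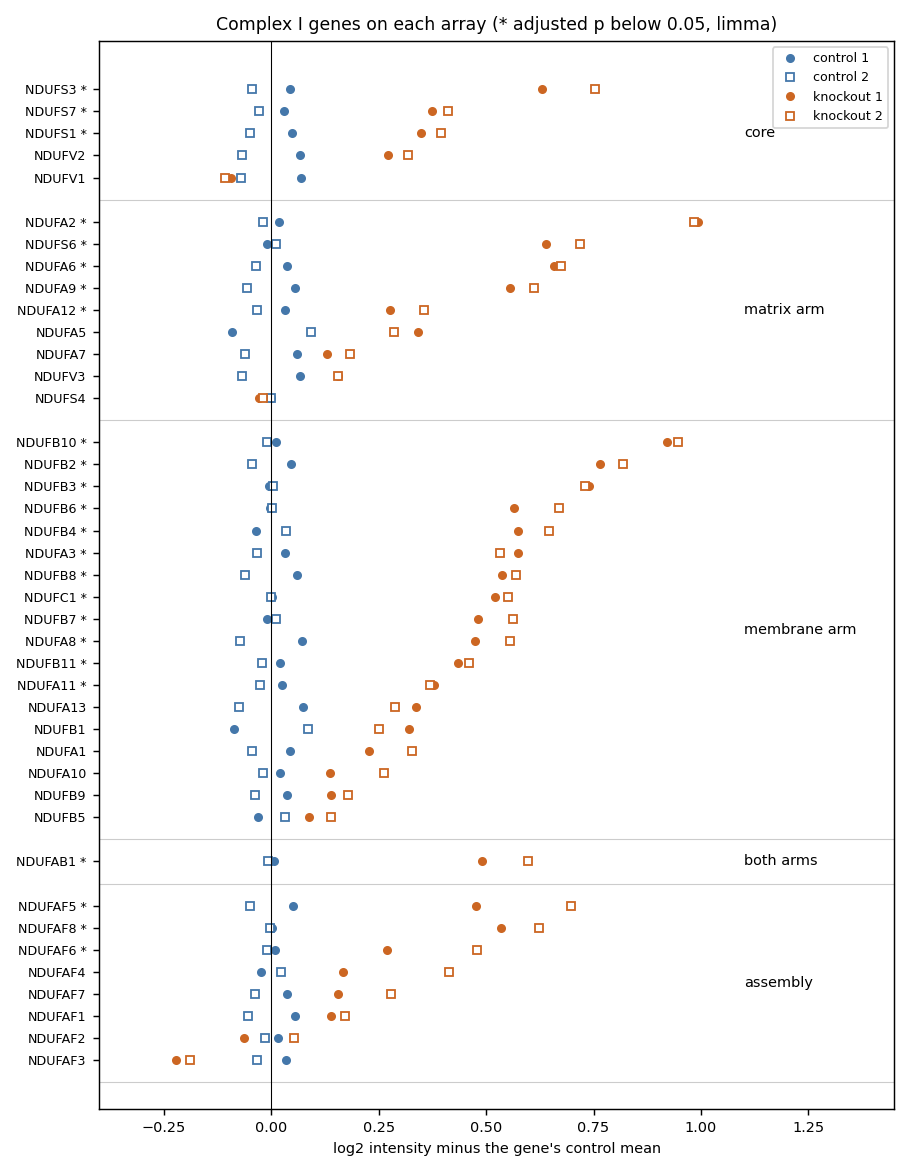
Log2 intensity of each complex I gene on each array minus that gene's mean of the 2 control arrays, by role; blue marks are control arrays and orange marks are knockout arrays, filled for replicate 1 and open for replicate 2. An asterisk marks the 24 genes with an adjusted p below 0.05, and the orange marks lie to the right of both blue marks for 37 of the 41 genes.

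Because so many of these genes moved together, the bases before their starts were examined. NRF1 and the ETS factor GABPA (also called NRF2) are transcription factors known to bind promoters of nuclear genes for the respiratory chain. The RefSeq promoter table (GRCh38.p14) held 38 of the 41 genes; NDUFB5, NDUFB9 and NDUFAF6 were not matched. In the 250 bases before the start, on either strand, the NRF1 letters (GCGCA, any base, then GCGC) occurred in 5 of 38 genes (13.2%), against 7.82% of 15384 tested genes in that table. The ETS letters CCGGAAG occurred in 6 of 38 (15.8%, against 12%). The letters CCAAT occurred in 8 of 38 (21.1%, against 34.1%). The 5 genes with the NRF1 letters were NDUFA3, NDUFA9, NDUFA11, NDUFA12 and NDUFB4, and all 5 rose. Of all 41 members 24 rose. That count includes NDUFB5, NDUFB9 and NDUFAF6, which were not searched, and of these only NDUFAF6 rose. NDUFA11 and NDUFA12 lost their calls with arrays scaled to equal means of reference genes (0.12 and 0.07). Whether the letters go with the rise was not tested. Of the 6 with the ETS letters (NDUFA1, NDUFA13, NDUFAF4, NDUFB7, NDUFS1 and NDUFS3), 3 rose, and of the 8 with CCAAT, 4 rose. No gene held both the NRF1 and the ETS letters. A match is a description of the letters and shows no binding.

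The 200 bases before the start are shown for 6 genes that rose, with NRF1 and ETS letters in capitals. NDUFB4 (chr3:120596136-120596335, plus strand) and NDUFA3 (chr19:54102655-54102854, plus strand) are shown for their 2 NRF1 matches each. NDUFA9 (chr12:4648914-4649113, plus strand) has 1 NRF1 match on the opposite strand. NDUFS3 (chr11:47578874-47579073, plus strand) has 2 ETS matches. NDUFA2 (chr5:140647631-140647830, minus strand) and NDUFB10 (chr16:1959338-1959537, plus strand) are shown for contrast, as the members with the largest rises, and hold neither set of letters.
NDUFB4: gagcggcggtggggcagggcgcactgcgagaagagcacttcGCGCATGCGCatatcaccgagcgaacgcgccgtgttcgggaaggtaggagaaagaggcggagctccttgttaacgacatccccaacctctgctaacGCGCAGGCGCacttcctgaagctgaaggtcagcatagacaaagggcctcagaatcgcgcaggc
NDUFA3: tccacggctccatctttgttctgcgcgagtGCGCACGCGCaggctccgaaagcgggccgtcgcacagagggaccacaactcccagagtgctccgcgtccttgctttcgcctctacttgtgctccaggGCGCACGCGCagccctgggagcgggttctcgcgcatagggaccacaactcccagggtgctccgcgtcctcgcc
NDUFA9: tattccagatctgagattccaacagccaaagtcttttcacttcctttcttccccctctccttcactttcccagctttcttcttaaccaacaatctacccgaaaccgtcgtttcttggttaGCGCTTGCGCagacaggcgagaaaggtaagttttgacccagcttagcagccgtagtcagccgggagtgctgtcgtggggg
NDUFS3: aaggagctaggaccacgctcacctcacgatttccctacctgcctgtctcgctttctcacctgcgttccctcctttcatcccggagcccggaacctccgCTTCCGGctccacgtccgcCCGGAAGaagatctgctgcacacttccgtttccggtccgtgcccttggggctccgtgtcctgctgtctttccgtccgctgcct
NDUFA2: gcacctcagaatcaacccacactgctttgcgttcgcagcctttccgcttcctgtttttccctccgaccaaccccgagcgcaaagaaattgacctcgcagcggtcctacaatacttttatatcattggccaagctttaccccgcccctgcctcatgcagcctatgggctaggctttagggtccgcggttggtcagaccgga
NDUFB10: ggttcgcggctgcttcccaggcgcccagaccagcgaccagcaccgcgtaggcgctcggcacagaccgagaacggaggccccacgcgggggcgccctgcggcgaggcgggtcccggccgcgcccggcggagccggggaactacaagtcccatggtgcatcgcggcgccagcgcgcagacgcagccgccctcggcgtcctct
Counted from the start, with -1 the base just before it, the NRF1 letters begin at -159 and -63 in NDUFB4, at -170 and -73 in NDUFA3 and at -80 in NDUFA9. The ETS letters of NDUFS3 begin at -102 and -83. Their rises are given with their roles.

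Core subunits of the matrix arm differed among themselves. NDUFS3, a core subunit of the ubiquinone-reducing part that joins early in assembly, stood at 9.08 and 8.99 in control arrays and at 9.66 and 9.78 in knockout arrays (log2 intensity). The arrays did not overlap, and the change in log2 intensity was 0.69 (SE 0.09, adjusted p = 0.0055 in limma), a 1.62-fold rise with a 95% confidence interval of 0.47 to 0.91 for the log2 change. NDUFS7, which helps to hold the last iron-sulfur cluster before ubiquinone, read 8.89 and 8.83 in control and 9.23 and 9.27 in knockout. It rose by 0.39 (SE 0.08, adjusted p = 0.020, limma). NDUFS1, the large iron-sulfur subunit that receives electrons next to the flavin subunit, read 9.52 and 9.42 in control and 9.82 and 9.87 in knockout. It rose by 0.37 (SE 0.08, adjusted p = 0.028, limma). Both groups were tight and separate for these genes.

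The pair of subunits at the NADH entry site did not pass the test. NDUFV2, which carries an iron-sulfur cluster there, had a change of 0.30 (95% confidence interval 0.08 to 0.51, adjusted p = 0.066, limma), with the knockout arrays above the controls. NDUFV1, which binds NADH and the flavin, read 10.06 and 9.92 in control and 9.90 and 9.88 in knockout. Its change was -0.10 (95% confidence interval -0.32 to 0.12, adjusted p = 0.48, limma). The core subunits thus ranged from -0.10 to 0.69, with 3 of 5 higher and a median of 0.37. With arrays scaled to equal means of reference genes, NDUFS7 and NDUFS1 were no longer called (0.14 and 0.12), nor were they with the mean of their probe sets (0.26 and 0.16), and NDUFV1 fell by 0.35 (adjusted p = 0.025, limma).

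Among the 9 supernumerary subunits of the matrix arm, 5 rose and 0 fell, with a median of 0.32. NDUFA2, a small subunit with a thioredoxin-like fold, stood at 9.77 and 9.74 in control and at 10.75 and 10.74 in knockout arrays. Replicates differed far less than the groups did, and it rose by 0.99 (SE 0.07, 95% confidence interval 0.80 to 1.18; adjusted p = 0.0016, limma). It was the 1 member called with any single array left out, but its change was 0.42 with the mean of its 3 probe sets and 0.38, not called, on its gene-specific probe set (adjusted p = 0.052, limma). NDUFS6, a zinc-binding subunit near the NADH-oxidizing tip, read 10.24 and 10.26 in control and 10.88 and 10.96 in knockout. It rose by 0.68 (SE 0.08, adjusted p = 0.0043, limma).

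NDUFA6, a member of the LYR protein family that binds the acyl carrier protein, read 10.12 and 10.05 in control and 10.75 and 10.76 in knockout. It rose by 0.67 (SE 0.08, adjusted p = 0.0044, limma). NDUFA9, a dehydrogenase-like subunit at the junction of the arms, read 9.46 and 9.35 in control and 9.96 and 10.02 in knockout, and rose by 0.58 (SE 0.08, adjusted p = 0.0078, limma). NDUFA12 rose by 0.32 (adjusted p = 0.044, limma), a call lost under reference gene scaling (0.07). For all of these the knockout arrays lay above the controls.

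NDUFA5 (0.31), NDUFA7 (0.16) and NDUFV3 (0.15) did not pass the test, although both knockout arrays lay above both control arrays in each. Under reference gene scaling NDUFA7 and NDUFV3 turned to -0.09 and -0.10. NDUFS4, a late-joining subunit whose loss is a known cause of Leigh syndrome, had the smallest change in this arm. It read 9.22 and 9.22 in control and 9.19 and 9.20 in knockout, a change of -0.02 (95% confidence interval -0.21 to 0.16, adjusted p = 0.87, limma). Its difference from NDUFS6 was not tested. The acyl carrier protein NDUFAB1, which is held in both arms and also serves mitochondrial fatty acid synthesis, read 11.48 and 11.47 in control and 11.97 and 12.07 in knockout. It rose by 0.54 (SE 0.08, adjusted p = 0.0087, limma).

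Of the 18 supernumerary subunits of the membrane arm 12 rose and 0 fell, with a median of 0.52. On the deposited scale both knockout arrays lay above both control arrays in each of the 18. NDUFB10, a subunit with disulfide bonds on the intermembrane side, stood at 9.79 and 9.77 in control and at 10.70 and 10.73 in knockout arrays. It rose 1.91-fold, a log2 change of 0.93 (SE 0.07, adjusted p = 0.0018, limma; 95% confidence interval 0.74 to 1.12). NDUFB2, a small subunit of the distal membrane arm, read 10.48 and 10.39 in control and 11.20 and 11.25 in knockout, and rose by 0.79 (SE 0.08, adjusted p = 0.0031, limma). Its second bright probe set gave 0.78.

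NDUFB3, another small subunit of the distal part, read 9.22 and 9.23 in control and 9.97 and 9.96 in knockout. It rose by 0.73 (SE 0.07, adjusted p = 0.0031, limma). NDUFB6 read 10.31 on both control arrays and 10.88 and 10.98 in knockout, and rose by 0.62 (SE 0.08, adjusted p = 0.0060, limma). NDUFB4 (0.61), NDUFA3 (0.55), NDUFB8 (0.55), NDUFC1 (0.54), NDUFB7 (0.52), NDUFA8 (0.51), NDUFB11 (0.45) and NDUFA11 (0.37) rose as well. NDUFB8 is often used as an antibody marker of assembled complex I, and NDUFA8 is a twin-cysteine protein of the intermembrane side.

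The other 6 of the membrane arm did not pass the test: NDUFA13 (0.31), NDUFB1 (0.29), NDUFA1 (0.28), NDUFA10 (0.20), NDUFB9 (0.16) and NDUFB5 (0.11). NDUFA13 is also known as the cell death protein GRIM-19. NDUFB5 had the smallest change of the 18, with 9.76 and 9.83 in control and 9.88 and 9.93 in knockout (95% confidence interval -0.08 to 0.31, adjusted p = 0.38, limma). Under reference gene scaling NDUFA10, NDUFB9 and NDUFB5 turned to -0.05, -0.09 and -0.14, none of them called, and NDUFA8 (0.26), NDUFB11 (0.20) and NDUFA11 (0.12) lost their calls.

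Of the 8 assembly factors 3 rose and 0 fell, and their changes ran from -0.21 to 0.59. NDUFAF5, which hydroxylates an arginine of NDUFS7, read 7.91 and 7.81 in control and 8.33 and 8.55 in knockout. It rose by 0.59 (SE 0.11, 95% confidence interval 0.32 to 0.85; adjusted p = 0.015, limma). NDUFAF8, its stabilizing partner, read 8.87 on both control arrays and 9.40 and 9.49 in knockout, and rose by 0.58 (SE 0.08, adjusted p = 0.0068, limma). Both partners were separated between the groups by more than the gap between replicates.

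NDUFAF6, a mitochondrial protein of the squalene and phytoene synthase family, read 8.22 and 8.20 in control and 8.47 and 8.68 in knockout. It rose by 0.37 (SE 0.10), with an adjusted p of 0.049 in limma, at the edge of the threshold. The call was lost among gene-specific probe sets alone (adjusted p = 0.063, limma). Its brightest probe set is itself gene-specific and gave the same 0.37 there, so only the other genes in the fit differed. With the mean of its probe sets it was not called either (adjusted p = 0.13, limma). Under reference gene scaling its change was 0.12 (adjusted p = 0.33, limma). NDUFAF8 was not called with the mean of its 3 probe sets (0.19), of which the other 2 were dim (mean log2 intensity 4.70 and 3.79 against 9.16) and gave -0.05 and 0.04. NDUFAF5 was called on 2 of its 3 probe sets.

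NDUFAF4 (0.29), NDUFAF7 (0.22) and NDUFAF1 (0.16) did not pass the test, with the knockout arrays above the controls, and under reference gene scaling NDUFAF7 and NDUFAF1 turned to -0.03 and -0.09. NDUFAF7 is itself an arginine methyltransferase. NDUFAF1 belongs to the assembly complex of the membrane arm, and NDUFAF4 works with NDUFAF3 on the ubiquinone-reducing part. NDUFAF3 had the lowest change of the 41, with 8.84 and 8.77 in control and 8.58 and 8.62 in knockout, a change of -0.21 (95% confidence interval -0.40 to -0.01, adjusted p = 0.13, limma). It was called lower under reference gene scaling (-0.46, adjusted p = 0.0098) and among the brighter genes alone (adjusted p = 0.037). NDUFAF2, a relative of NDUFA12 that holds its place during assembly, had the smallest change of the assembly factors, with 9.27 and 9.24 in control and 9.19 and 9.31 in knockout (-0.01, adjusted p = 0.98, limma).

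Subunits had the larger median change and assembly factors the smaller. Of 33 subunits 21 rose, with a median of 0.45, and of 8 assembly factors 3 rose, with a median of 0.25. The order did not hold for every grouping. The 9 supernumerary subunits of the matrix arm had a median of 0.32, below the 0.35 of 12 assembly factors without the NDUFAF name. The mean log2 intensity of the subunits was 10.08 and 10.04 on control arrays and 10.48 and 10.52 on knockout arrays, a difference of 0.44. That of the assembly factors was 8.55 and 8.50 on control and 8.71 and 8.84 on knockout arrays, a difference of 0.25. Subunits minus assembly factors gave 1.53 and 1.54 in control and 1.78 and 1.68 in knockout, so the gap was wider on both knockout arrays, by 0.19 on average. The SD of this gap was 0.07 between the knockout arrays (n = 2), and genes are not replicates, so no test was made. The gap in medians lay between 0.11 without knockout 1 and 0.27 without knockout 2, which held the higher knockout value of all 8 assembly factors.

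**Figure D2:**
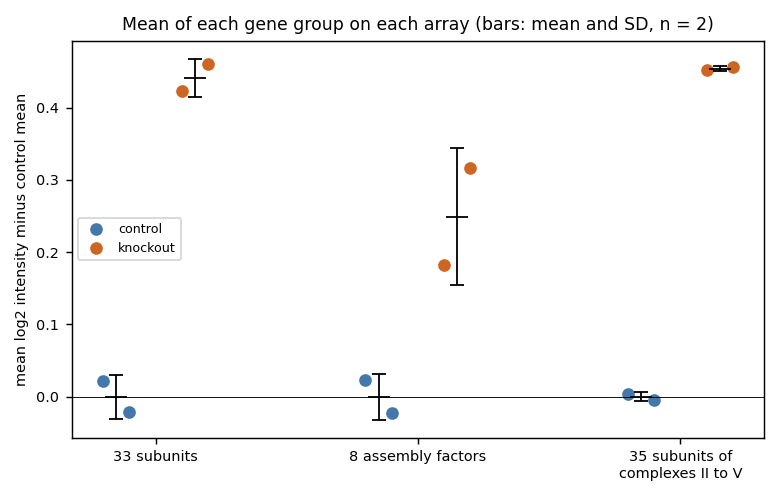
Mean log2 intensity of 33 complex I subunits, 8 assembly factors and 35 subunits of complexes II to V on each array, minus the mean of the 2 control arrays; points are arrays, bars the mean and SD of 2 arrays. Knockout arrays lay 0.44 higher on average for subunits and 0.25 higher for assembly factors, whose 2 knockout arrays stood further apart.

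Complex I assembly factors that do not carry the NDUFAF name were taken from a list of 12. Of these 7 rose and 0 fell, with a median of 0.35, and 3 rose and 2 fell under reference gene scaling. TMEM126B, a membrane-arm assembly protein that works with NDUFAF1, read 9.86 and 9.87 in control and 10.55 and 10.61 in knockout, and rose by 0.71 (SE 0.08, adjusted p = 0.0036, limma). Its relative TMEM126A rose by 0.61 (adjusted p = 0.0062, limma), and the distal-arm assembly factor DMAC2 by 0.53 (adjusted p = 0.0096, limma). FOXRED1 (0.43), DMAC1 (0.39), TMEM70 (0.39) and ECSIT (0.31) rose too. TIMMDC1 (-0.09), NUBPL (-0.09), COA1 (0.02), TMEM186 (0.06) and ACAD9 (0.26) did not pass the test.

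In complexes III, IV and V most measured subunits rose, and in complex II 1 did. All 7 measured subunits of complex III rose (median 0.55), as did 7 of 10 of complex IV (0.33), 13 of 15 of complex V, the ATP synthase (0.53), and 1 of 3 of complex II (0.28); 0 of these 35 fell, of 38 listed. The largest rise within each of complexes V, III and IV was that of ATP5MC1, which encodes the ATP synthase ring subunit c (1.05, SE 0.08), UQCR10 of complex III (0.87, SE 0.07) and COX7B of complex IV (0.62, SE 0.08), with adjusted p-values of 0.0016, 0.0022 and 0.0054 in limma. SDHA of complex II, which is also among the reference genes, rose by 0.33, a call lost under reference gene scaling (0.08) and with any 1 array left out. Under that scaling 4 of complex III, 2 of complex IV, 9 of complex V and 0 of complex II rose, and 1 of complex V fell. Leaving out 1 array gave 0 to 5 for complex III, 0 to 2 for complex IV, 1 to 9 for complex V and 0 for complex II, with the lowest counts without either knockout array. With gene-specific probe sets 5 of complex V and 0 of complex II rose, but SDHA and ATP5MC1 have no such probe set and were not in that fit. CYC1 (0.60), UQCRQ (0.60), COX6B1 (0.56), COX6C (0.41, not called under reference gene scaling), ATP5MC3 (0.80) and ATP5MG (0.76) were the next largest in their complexes. The mean of the 35 was 0.45 higher in knockout arrays, against 0.44 for the complex I subunits, and the difference between complexes was not tested. With gene-specific probe sets, UQCR10 (0.36, adjusted p = 0.11) and ATP5MG (0.36, adjusted p = 0.055) were not called.

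**Figure D3:**
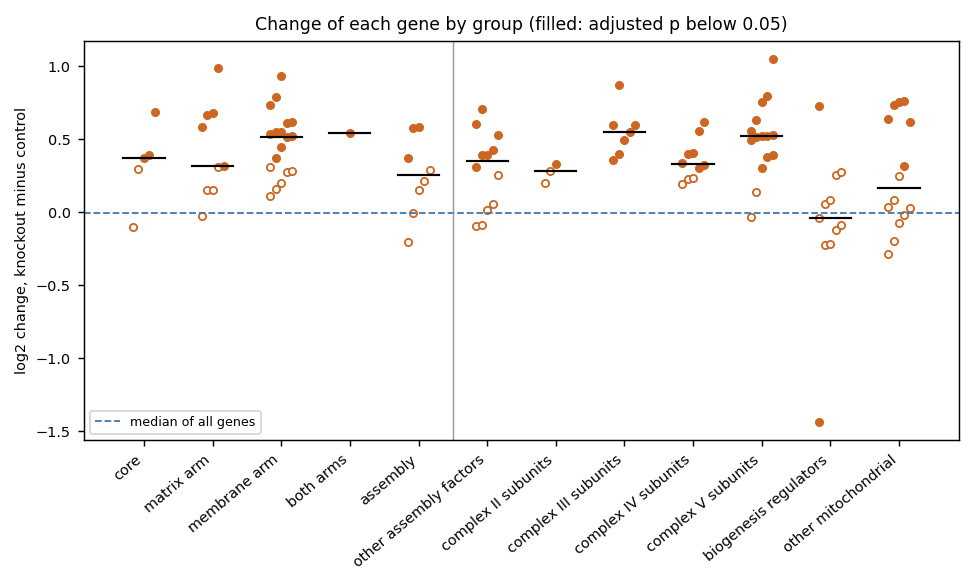
Log2 change (knockout minus control) of each gene, with complex I roles left of the grey line and comparison groups right of it; filled points passed an adjusted p of 0.05, black bars are group medians, and the dashed line is the median of all genes at -0.01. Points of the membrane arm and of complexes II, III and IV all lie above the dashed line, as does NDUFAB1 of both arms. The regulators are spread around that line.

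COXFA4, once named NDUFA4 and counted with complex I but now placed in complex IV, read 10.997 and 11.10 in control and 11.67 and 11.63 in knockout. It rose by 0.60 (SE 0.08, adjusted p = 0.0064, limma). COXFA4L2 read 5.60 and 5.73 in control and 5.52 and 5.66 in knockout, a change of -0.07, and COXFA4L3 had -0.09 at a control mean of 2.94; neither passed the test. Among the non-coding neighbours, NDUFB2-AS1, antisense to NDUFB2, read 6.06 and 6.13 in control and 5.83 and 5.72 in knockout. It fell by 0.32 (SE 0.08, adjusted p = 0.048, limma), while NDUFB2 rose. NDUFV1-DT (0.14) and NDUFV2-AS1 (-0.07) did not pass the test.

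Several probe sets were present for 24 of the 41 genes, which allowed a second reading. Of the 37 probe sets that were not the brightest, 8 were called higher and 1 lower when every probe set was tested singly, where 9.48% of all single-gene probe sets were called higher. The 6 of these 37 with a mean log2 intensity above 7 were all called higher. These 6 belonged to NDUFA6, NDUFA11, NDUFAF5, NDUFB2, NDUFB8 and NDUFB10, and their changes ran from 0.37 to 0.78. That count depends on where the level of 7 was set. Just under it, a probe set of NDUFS1 (mean 6.95) gave 0.12 and a probe set of NDUFV3 (mean 6.57) gave -0.17, neither of them called. The 1 called lower was a dim probe set of NDUFAF4 (mean 5.58, -0.47), whose brightest probe set gave 0.29. A dim probe set of NDUFA5 (mean 3.56) was called at 0.98, against 0.31 for the bright one. With gene-specific probe sets alone, 11 of 32 genes rose and 0 fell, against 9.63% and 9.48% of all genes, and 19 of those 32 were called with the brightest. NDUFA2 (0.38, adjusted p = 0.052), NDUFB6 (0.29), NDUFS7 (0.12), NDUFS1 (0.12) and NDUFA11 (0.16) lost their calls there, and NDUFB7 turned to -0.02, on dimmer probe sets. With the mean of probe sets NDUFB7 was at 0.25 (adjusted p = 0.074, limma).

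**Figure D4:**
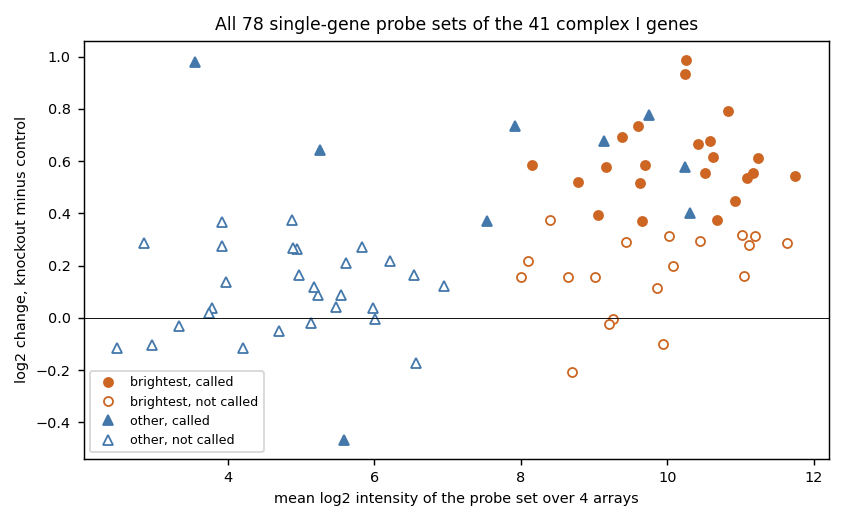
Log2 change (knockout minus control) against mean log2 intensity for all 78 single-gene probe sets of the 41 genes; orange circles are each gene's brightest probe set and blue triangles the others, filled where the adjusted p over all single-gene probe sets was below 0.05. Called probe sets lie mostly above an intensity of 7, where all 6 of the other probe sets were called higher. The next brightest of the others, a probe set of NDUFS1 at 6.95, was not called.

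Rescaling the arrays moved the change of every gene by the same amount, by design. The deposited values were quantile-normalized, so every change is relative to the other transcripts. Setting arrays to equal means of 10 measured reference genes took the median over all genes to -0.26 from -0.01. These reference genes were themselves shifted, with 5 of 10 called higher and a median of 0.26. Under that scaling 17 complex I genes rose and 3 fell (NDUFV1, NDUFS4 and NDUFAF3), against 6.24% and 36.8% of all genes. The median of the 41 was then 0.12, which is 0.38 above the median of all genes. That gap had to equal the gap on the deposited scale, because the scaling lowers every gene's change by the same 0.25. It is therefore no check on the difference between complex I genes and all genes. Complex I genes are bright, with means of 8.01 or more where the median gene stood at 5.97, and bright genes were called more often. In a fit of the 9887 brighter genes alone, 31 of 41 rose and 1 fell, against 30.3% and 26% of those genes. With an intensity trend in the prior, 32 rose and 0 fell, against 15.7% and 13.6% of all genes. With the mean of each gene's probe sets, 21 rose and 0 fell, against 12.2% and 10%.

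**Figure D5:**
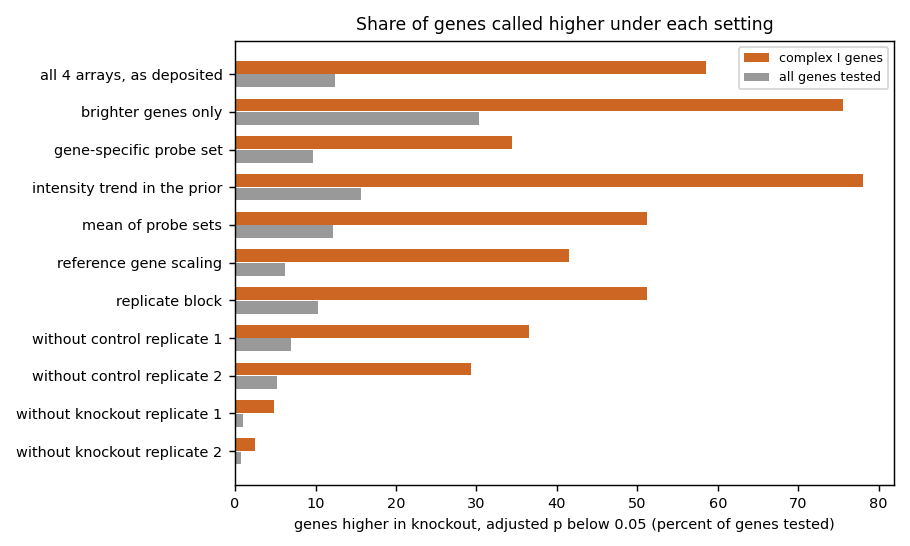
Percent of genes called higher in knockout cells (adjusted p below 0.05, limma) among complex I genes (orange) and among all genes tested (grey) under each setting. The share was 58.5% against 12.4% with all 4 arrays as deposited and 4.88% against 0.991% without knockout replicate 1.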

How the data were processed

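The authors deposited 1 table of log2 intensities for 54613 probe sets on 4 arrays. The submitters' processing notes name affy and RMA (background correction, quantile normalization, summary per probe set), without versions; the values themselves showed the scale to be log2. RMA compresses changes of dim probe sets. Labelling was primed at the 3′ end, per the labels' protocols.

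Probe sets were named from the platform annotation and updated by Entrez number to RefSeq (GRCh38.p14): 41091 had 1 symbol, 1801 had several and 11721 were not listed. Arrays were grouped by their titles. The test of knockout against control was limma's (version 3.58.1, R 4.3.3; lmFit, eBayes, constant prior, no covariates, all 4 arrays) over 19775 genes, with Benjamini-Hochberg adjustment and a threshold of 0.05; there were 2 residual and 3.27 prior degrees of freedom. The number of arrays limits the precision. The fit was tested on simulated data. Members and lists were chosen with earlier results of these data known, so lists are described by counts and medians, with no set test. Values on each array are given, per role, for at most 4 called genes (those that changed most) and for the gene that changed least; each comparison list names at most 3 called genes first, and others by value. The promoter motifs and the 6 promoters printed were chosen after the changes were seen. Alternatives were the mean of probe sets, gene-specific probe sets (no _s_at, _x_at or _a_at), brighter genes, an intensity trend in the prior, reference gene scaling, a replicate block and leaving out each array.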

Additional observations from a re-analysis of the deposited data

Results flagged for a closer look

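Probe sets annotated to several genes were outside the comparison. Of those shared by an NDUFS gene or by NDUFC2, 6 had both knockout arrays above both control arrays. That order was seen in 29.1% of all genes and in 4165 of the 9887 brighter genes. The other, of NDUFS8, overlapped between groups. Further shared probe sets with a complex I gene were not examined. The examined ones were tested over all 54613 probe sets with limma. The probe set shared by NDUFS5 and RPL10 gave 0.83 (SE 0.09, adjusted p = 0.0087), and signal of the subunit and of the ribosomal protein cannot be told apart there. The brighter probe set of NDUFC2 and NDUFC2-KCTD14 gave 0.64 (adjusted p = 0.014) and the dimmer 0.16 (0.40). The probe set shared by NDUFS3 and PTPMT1 gave 0.57 (adjusted p = 0.023), beside 0.69 for the NDUFS3 probe set. The 3 probe sets of the core subunit NDUFS8, shared with MIR7113 and MIR4691, were at 0.31 (adjusted p = 0.087), 0.36 (0.082) and 0.21 (0.67). The last of these was the overlapping probe set.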

How the results depend on the processing

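The change above 0 and the number of calls depended on the settings to different degrees. Complex I genes called higher were 24 with the deposited values, 21 with the mean of probe sets, 17 under reference gene scaling, 31 among brighter genes and 32 with an intensity trend. With gene-specific probe sets 11 were called, in a fit of 32 of the 41 genes; the rest of the cause was not tested. Genes called lower were 0, but 1 among brighter genes and 3 under reference gene scaling. Leaving out 1 array, which also leaves fewer degrees of freedom, gave 1 to 15 higher and 0 lower, 1 to 14 for subunits (main 21) and 0 to 1 for assembly factors (main 3). With gene-specific probe sets 11 subunits and 0 assembly factors were higher, but NDUFAF5 has no such probe set and was not in that fit. Assembly factors higher were 1 with the mean of probe sets and 5 among brighter genes. Subunits minus assembly factors (median change 0.19) was 0.26 with the mean of probe sets, 0.14 with gene-specific probe sets and 0.11 to 0.27 without 1 array.

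Over all genes, 2459 higher became 1616 with gene-specific probe sets, 1233 under reference gene scaling and 154 to 1371 without 1 array. The 2281 lower became 7280 under reference gene scaling and 354 to 1258 without 1 array. In the lists set beside complex I, 42 higher became 24 with gene-specific probe sets, 24 under reference gene scaling and 1 to 24 without 1 array. Genes without a gene-specific probe set, SDHA and ATP5MC1 among them, were not in the gene-specific fit. The 1 lower in these lists became 3 with the mean of probe sets, 2 with gene-specific probe sets, 2 among brighter genes, 3 with an intensity trend and 12 under reference gene scaling.

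Changes that turned sign were those of members not called, apart from NDUFAF8 and NDUFB7. Reference gene scaling gave -0.050 for NDUFA10, -0.094 for NDUFA7, -0.095 for NDUFAF1, -0.034 for NDUFAF7, -0.14 for NDUFB5, -0.091 for NDUFB9 and -0.095 for NDUFV3. The mean of probe sets gave -0.088 for NDUFAF4 and -0.0098 for NDUFV3. Gene-specific probe sets gave -0.049 for NDUFAF8, -0.019 for NDUFB7 and -0.17 for NDUFV3. NDUFAF2, not called anywhere among these, ran from -0.063 to 0.052 as each array was left out.

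Arrays of the 2 groups share replicate numbers, but deviations of same-numbered arrays correlated at 0.05, so the numbers were not taken to pair them. With the number as a replicate block, 21 complex I genes were higher and 0 lower (NDUFA12, NDUFAF6 and NDUFS1 lost, at adjusted p-values of 0.056 to 0.083), with 2035 genes higher (10.3%) and 1937 lower in all. The block also ended the calls of PRMT6 (adjusted p = 0.076) and SDHA (0.070), and took complex IV from 7 higher to 4. With 2 arrays a group and no detection calls, small changes and dim probe sets could not be resolved.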

Other observations

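Of 11 regulators of mitochondrial biogenesis, 1 rose and 1 fell, with a median of -0.04, against 12.4% of all genes that rose and 11.5% that fell. Under reference gene scaling 1 rose and 6 fell (median -0.29), against 6.24% and 36.8%. TFAM, which packages mitochondrial DNA and activates its transcription, read 9.84 and 9.69 in control and 10.43 and 10.56 in knockout arrays. It rose by 0.73 (SE 0.10, adjusted p = 0.0060, limma). PPARGC1A, the coactivator PGC-1alpha, read 6.52 and 6.55 in control and 5.10 on both knockout arrays and fell by 1.43 (SE 0.07, adjusted p = 0.00061, limma), or by 0.61 with the mean of its probe sets. NRF1 (-0.12), GABPA (0.26), ESRRA (-0.22) and PPARGC1B (-0.22) did not pass the test.

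Of 14 mitochondrial proteins outside the respiratory chain, 6 rose and 0 fell, with a median of 0.17. Under reference gene scaling 5 rose and 3 fell (median -0.09). The outer membrane channel VDAC3 rose by 0.77 (SE 0.08), the inner membrane scaffold PHB1 by 0.75 (SE 0.10) and the import receptor TOMM22 by 0.74 (SE 0.09), with adjusted p-values of 0.0030, 0.0055 and 0.0055 in limma. Citrate synthase CS (0.64), HSPE1 (0.62) and VDAC1 (0.32) rose too, while the import receptor TOMM20 (-0.28) and the chaperonin HSPD1 (-0.07) did not pass the test.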
